A study of Mus musculus with 11 samples.

Results

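The immediate early genes described here were *Fos*, *Fosb*, *Fosl1*, *Fosl2*, *Jun*, *Junb*, *Jund*, *Egr1*, *Atf3* and *Ier2*, chosen by name as 10 of the 27179 genes counted in RNA-seq libraries of mouse mammary cells. All 10 passed the filter on low counts, which kept 15422 genes with more than 0.5 CPM (reads of a gene per 1e6 reads of its library) in at least 3 libraries. The sorted populations came from mammary glands of virgin female FVB/N mice, labelled wild type and 8 weeks old, with 3 libraries for each of 3 populations: MaSC/basal cells (CD24+CD29hi, the fraction enriched for mammary stem cells), luminal progenitor (LP) cells (CD24+CD29loCD61+) and mature luminal (ML) cells (CD24+CD29loCD61-). A single library came from MaSC/basal cells kept for 1 week as mammospheres, floating spheres grown in serum-free medium with EGF, bFGF, insulin and hydrocortisone, and a single library came from CommaDB, a mammary epithelial line derived from mid-pregnant Balb/c mice. The sorted cells were therefore separated enzymatically from tissue before the sort, whereas the mammosphere and CommaDB cells had grown in culture. The CommaDB cells differ from the sorted cells in strain, in physiological state of the donor and in being an established line, so culture cannot be told apart from these for that library. The submitted name of MaSC/basal replicate 1 contains the string p53 although its genotype is labelled wild type. Without that library the number of genes called by the population tests below fell from 5 to 4 (MaSC/basal against LP, *Atf3*), from 4 to 3 (MaSC/basal against ML, *Fosb*) and from 2 to 1 (LP against ML, *Fosl1*). Over the omission of each single sorted library the counts ran from 3 to 7, 3 to 6 and 1 to 2. The drop was therefore not particular to that library.

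Immediate early genes are transcribed within minutes of a stimulus, before new protein is made, and their transcripts are short-lived. Growth factors acting through ERK and the ternary complex factors, stress acting through JNK and p38, and cyclic AMP acting through CREB all switch them on. The products of *Fos*, *Fosb*, *Fosl1* and *Fosl2* pair with those of *Jun*, *Junb* and *Jund* to form the transcription factor AP-1. Tissue dissociation is a well-known stimulus of these genes, which makes them a recurrent concern in data from sorted cells.

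RefSeq start-site windows (build GRCm38.p6) were held for 7 of the 10 genes, and the 250 bases upstream of each start were searched. The cyclic AMP response element half-site TGACG, read on both strands, was present in the windows of *Fos*, *Fosb*, *Junb* and *Atf3*, and in 17.8% of the windows of all 32851 genes in the table. The full element TGACGTCA, which contains the half-site, and the AP-1 site TGACTCA were found in none of the 7 windows, against 1.55% and 4.46% of all windows. The variant TGACATCA, known from the *Jun* promoter and added for that reason, was found in the *Jun* window alone among the 7 and in 2.93% of all windows. The EGR site was found in the windows of *Fosb* and *Fosl2*, and in 3.06% of all windows, and no CArG box, the element bound by SRF, was found in the 7 windows, against 1.47% of all windows. Bases farther upstream were not searched, and *Egr1*, *Fosl1* and *Ier2* had no window. The search therefore does not show that these genes lack any such element. The 100 bases immediately upstream of the start are shown for 3 genes, one each of the Fos family, the Jun family and the others, because they carry such elements close to the start. Capitals mark TGACG or its reverse complement CGTCA, the variant TGACATCA in *Jun*, and TATAAA in *Fos*, whose TATA element lay 33 to 28 bases before the start. *Fos* lies on the plus strand and the window spans chr12:85473790-85473889, *Jun* lies on the minus strand with a window at chr4:95052223-95052322, and *Atf3* lies on the minus strand with a window at chr1:191183334-191183433.
Fos: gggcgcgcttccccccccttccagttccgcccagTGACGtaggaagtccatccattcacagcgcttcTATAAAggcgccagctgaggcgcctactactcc
Jun: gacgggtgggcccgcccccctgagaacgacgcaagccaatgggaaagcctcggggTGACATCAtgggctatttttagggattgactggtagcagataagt
Atf3: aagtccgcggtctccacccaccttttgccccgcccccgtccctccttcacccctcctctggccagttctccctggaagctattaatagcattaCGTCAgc
A match of letters is a description of the window and does not show binding.

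Between 19958838 and 75795034 reads were assigned to genes per library. The 10 genes took 0.607% to 1.77% of these in MaSC/basal cells, 1.33% to 2.83% in LP cells and 1.57% to 2.46% in ML cells, against 0.145% in the mammosphere library and 0.259% in the CommaDB library. The labels of the sorted populations held in the summed CPM of marker genes. *Krt5*, *Krt14*, *Trp63* and *Acta2* summed to 12427 to 16392 in MaSC/basal and 46.3 to 312 in luminal libraries, highest in ML replicate 3. *Kit*, *Elf5*, *Aldh1a3* and *Itgb3* summed to 1224 to 1614 in LP and 295 to 688 in ML libraries, highest in ML replicate 2. Of these, *Aldh1a3* did not differ between LP and ML cells (edgeR adjusted p = 0.472). *Esr1*, *Pgr*, *Prlr* and *Foxa1* summed to 642 to 1562 in LP and 3542 to 5948 in ML libraries. The summed CPM of endothelial markers was 42.6 to 91.0 for MaSC/basal, 7.27 to 22.0 for LP and 5.40 to 36.9 for ML libraries. Of these markers 5 of 5 were higher in MaSC/basal than in LP cells, against 29.4% of all genes tested. Only 1 of 5 (*Kdr*) was higher in MaSC/basal than in ML cells, against 28.9%. The part of these markers in the differences below was not tested. Of 8 immune markers only 4 passed the filter, the sum staying between 7.67 and 25.2 CPM in sorted libraries, and the lymphocyte markers *Cd3e* and *Cd3g* reached at most 1.01 and 0.07 CPM. In such bulk samples, fewer cells of a type and less RNA per cell cannot be told apart.

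**Figure D1:**
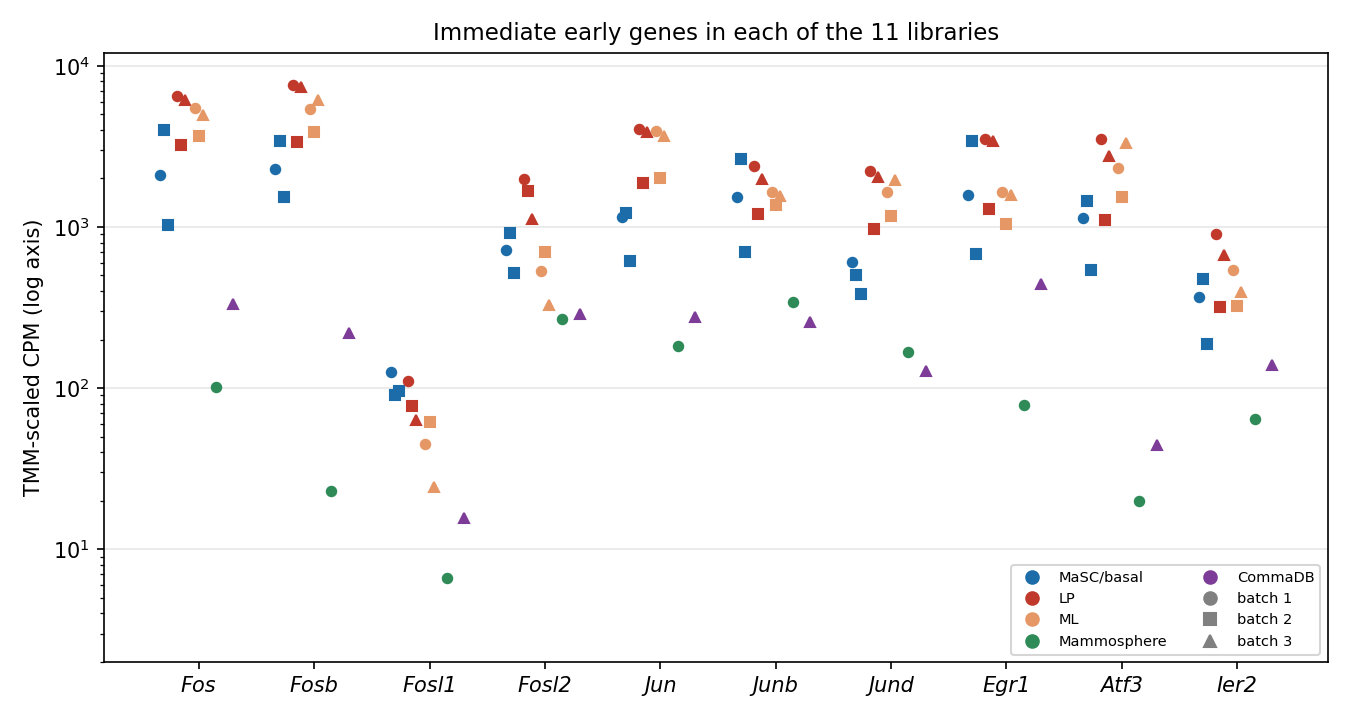
TMM-scaled CPM (log axis) of the 10 immediate early genes in each of the 11 libraries, coloured by cell type and with a symbol for each library batch. The mammosphere and CommaDB points lie below all 9 sorted libraries for every gene, narrowly so for *Fosl2*.

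The first question was whether MaSC/basal, LP and ML cells carried different levels of these transcripts. LP cells had higher *Fosb*, *Fosl2*, *Jun*, *Jund* and *Atf3* than MaSC/basal cells, by 2.22- to 3.52-fold, and ML cells had higher *Fosb*, *Jun* and *Jund*. *Fosl1* ran the other way and was higher in MaSC/basal than in ML cells, and *Fosl1* and *Fosl2* were higher in LP than in ML cells. Differences are on the log2 scale with standard errors (SE) from edgeR's quasi-likelihood test, two-sided, with p-values adjusted by Benjamini-Hochberg over all 15422 genes. In LP cells 5 of 10 were higher than in MaSC/basal cells, against 28% of all genes tested, and 0 of 10 were lower, against 29.4%. In ML cells 3 of 10 were higher than in MaSC/basal cells, against 29.7%, and 1 of 10 was lower, against 28.9%. Between the luminal populations 2 of 10 were higher in LP cells, against 14.3%, and 0 of 10 were higher in ML cells, against 17.5%. The counts of higher genes in ML cells and of lower genes in LP and ML cells were thus near or below the share among all genes. These fits had no term for library batch, and batch 3 has no MaSC/basal library. With batch added, *Atf3* against LP cells (edgeR adjusted p = 0.164) and *Fosb* against ML cells (edgeR adjusted p = 0.0901) lost their calls.

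*Jund*, the Jun-family member usually described as the more constantly expressed one, had 602, 503 and 383 CPM in the 3 MaSC/basal libraries, 2217, 973 and 2052 CPM in the LP libraries and 1640, 1174 and 1963 CPM in the ML libraries. Every luminal library lay above every MaSC/basal library. The difference of MaSC/basal from LP cells was -1.82 ± 0.33 (log2, SE, n = 3 and 3, edgeR adjusted p = 0.00097), and that from ML cells was -1.68 ± 0.33 (edgeR adjusted p = 0.00143). LP and ML cells differed by 0.13 ± 0.32, which was within the error (edgeR adjusted p = 0.781).

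*Jun*, the founding member of its family and a target of JNK signalling, had 1148, 1222 and 616 CPM in MaSC/basal libraries, 4078, 1868 and 3866 CPM in LP libraries and 3938, 1998 and 3641 CPM in ML libraries. Here too the luminal and MaSC/basal libraries did not overlap, and the second LP and ML libraries were the lowest of their populations. The difference was -1.72 ± 0.39 against LP (edgeR adjusted p = 0.0036) and -1.68 ± 0.39 against ML (edgeR adjusted p = 0.00381). *Jun* and *Jund* kept these calls when any single sorted library was left out, and within batch 1 and within batch 2 the luminal libraries again lay above the MaSC/basal libraries for both genes.

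*Junb*, the remaining Jun gene, differed from both in that no comparison passed the test. Its lowest and highest libraries had 702 and 2655 CPM among MaSC/basal cells, 1208 and 2395 CPM among LP cells and 1361 and 1657 CPM among ML cells, with medians of 1537, 1993 and 1554 CPM, so that the range of the MaSC/basal libraries contained that of each luminal population. The difference was -0.19 ± 0.41 against LP (edgeR adjusted p = 0.714) and 0.10 ± 0.41 against ML (edgeR adjusted p = 0.855).

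Within the Fos family, *Fosb* had 2278, 3414 and 1541 CPM in MaSC/basal, 7595, 3351 and 7356 CPM in LP and 5407, 3897 and 6127 CPM in ML libraries. Only the second LP library fell within the MaSC/basal range, and within batch 2 it lay below MaSC/basal replicate 2, whereas within batch 1 both luminal libraries lay above. *Fosb* differed between MaSC/basal and LP cells by -1.34 ± 0.38 (log2, SE, edgeR adjusted p = 0.012) and differed from ML cells by -1.09 ± 0.38 (edgeR adjusted p = 0.0292). When library batch entered as a replicate block, the ML difference was -0.82 (edgeR adjusted p = 0.0901), and it also lost the call in 4 of 9 fits that each left out 1 library, namely without MaSC/basal replicate 1 (log2 -1.04, edgeR adjusted p = 0.0866) or 3 (0.0985) or ML replicate 1 (0.0648) or 3 (0.0791).

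*Fos*, which encodes the partner that gives AP-1 its strongest activation, had 2086, 4000 and 1029 CPM in MaSC/basal, 6494, 3215 and 6117 CPM in LP and 5450, 3676 and 4966 CPM in ML libraries. MaSC/basal replicate 2 overlapped the luminal libraries, exceeding both luminal libraries of its own batch, and replicate 3 was the lowest of the 9. The difference from LP cells, -1.15 ± 0.45, lay at the threshold without passing it (edgeR adjusted p = 0.0501), and it passed without MaSC/basal replicate 2 (log2 -1.76, edgeR adjusted p = 0.008) or LP replicate 2 (log2 -1.43, edgeR adjusted p = 0.0273). It also passed in limma voom (adjusted p = 0.0244), in DESeq2 (adjusted p = 0.0118) and, in edgeR, with DESeq2 size factors, with no filter, with a filter at 1 CPM and in the 9 sorted libraries alone, where adjusted p was 0.0404 to 0.0484. Against ML cells it was -0.99 ± 0.45 (edgeR adjusted p = 0.0836), which passed without MaSC/basal replicate 2 (log2 -1.57, edgeR adjusted p = 0.0122), in limma voom (adjusted p = 0.0379) and in DESeq2 (adjusted p = 0.0363).

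The Fos-related genes *Fosl1* and *Fosl2*, whose proteins lack the strong activation domains of *Fos* and *Fosb*, had other orders. *Fosl2* had 717, 917 and 520 CPM in MaSC/basal, 1995, 1678 and 1115 CPM in LP and 530, 698 and 328 CPM in ML libraries. All LP libraries were above all MaSC/basal and ML libraries, which overlapped each other. LP exceeded ML cells by 1.62 ± 0.33 (edgeR adjusted p = 0.00552), and MaSC/basal cells differed from LP cells by -1.15 ± 0.32 (edgeR adjusted p = 0.0117), a call that was lost without MaSC/basal replicate 3 (log2 -0.96, edgeR adjusted p = 0.0501).

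*Fosl1*, a gene often linked to migration, had 125, 90.4 and 96.3 CPM in MaSC/basal, 111, 77.9 and 63.7 CPM in LP and 45.0, 61.6 and 24.2 CPM in ML libraries. The ML libraries lay below all LP and MaSC/basal libraries, while the LP and MaSC/basal ranges overlapped. MaSC/basal exceeded ML cells by 1.25 ± 0.32 (edgeR adjusted p = 0.0066), whereas the difference from LP cells was 0.30 ± 0.31 (edgeR adjusted p = 0.428). The LP excess over ML cells, 0.94 ± 0.32 (edgeR adjusted p = 0.045), lost its call in 7 of 9 fits that left out 1 library, all but those without LP replicate 3 or ML replicate 2, with edgeR adjusted p from 0.0554 without MaSC/basal replicate 2 and 0.0569 without MaSC/basal replicate 1 (log2 0.95) to 0.142 without LP replicate 1.

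Outside the AP-1 families, *Atf3*, which encodes a stress-induced factor that can dimerise with Jun proteins, had 1135, 1448 and 540 CPM in MaSC/basal, 3489, 1105 and 2754 CPM in LP and 2304, 1544 and 3296 CPM in ML libraries. The second LP library fell among the MaSC/basal libraries, and the ML libraries lay above them. The difference from LP cells was -1.23 ± 0.47 (edgeR adjusted p = 0.0465) and that from ML cells was -1.19 ± 0.47 (edgeR adjusted p = 0.0514). The LP call was lost with the replicate block (log2 -0.77, edgeR adjusted p = 0.164), without scaling beyond library size (edgeR adjusted p = 0.0743) and in 5 of 9 fits without 1 library, those without MaSC/basal replicate 1 (log2 -1.29, edgeR adjusted p = 0.0962) or 3 (0.137), LP replicate 1 (0.154) or 3 (0.103) or ML replicate 1 (0.0563). The ML difference passed without LP replicate 1 or 2, ML replicate 2 or MaSC/basal replicate 2, with adjusted p between 0.0244 and 0.0489 in edgeR, and also without scaling (0.0477), without a filter (0.0399), in limma voom (0.0373) and in DESeq2 (0.015).

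*Egr1*, a zinc finger factor induced through SRF, had 1588, 3410 and 683 CPM in MaSC/basal, 3497, 1291 and 3431 CPM in LP and 1645, 1050 and 1588 CPM in ML libraries. *Ier2*, a small nuclear protein gene, had 367, 477 and 189 CPM in MaSC/basal, 901, 321 and 668 CPM in LP and 537, 324 and 396 CPM in ML libraries. The populations overlapped for both genes. *Egr1* differed by -0.53 ± 0.54 between MaSC/basal and LP cells (edgeR adjusted p = 0.419) and by 0.94 ± 0.54 between LP and ML cells (edgeR adjusted p = 0.21). *Ier2* differed by -0.87 ± 0.41 between MaSC/basal and LP cells (edgeR adjusted p = 0.091), and this passed without LP replicate 2 (log2 -1.20, edgeR adjusted p = 0.0195) and in DESeq2 (adjusted p = 0.0478).

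**Figure D2:**
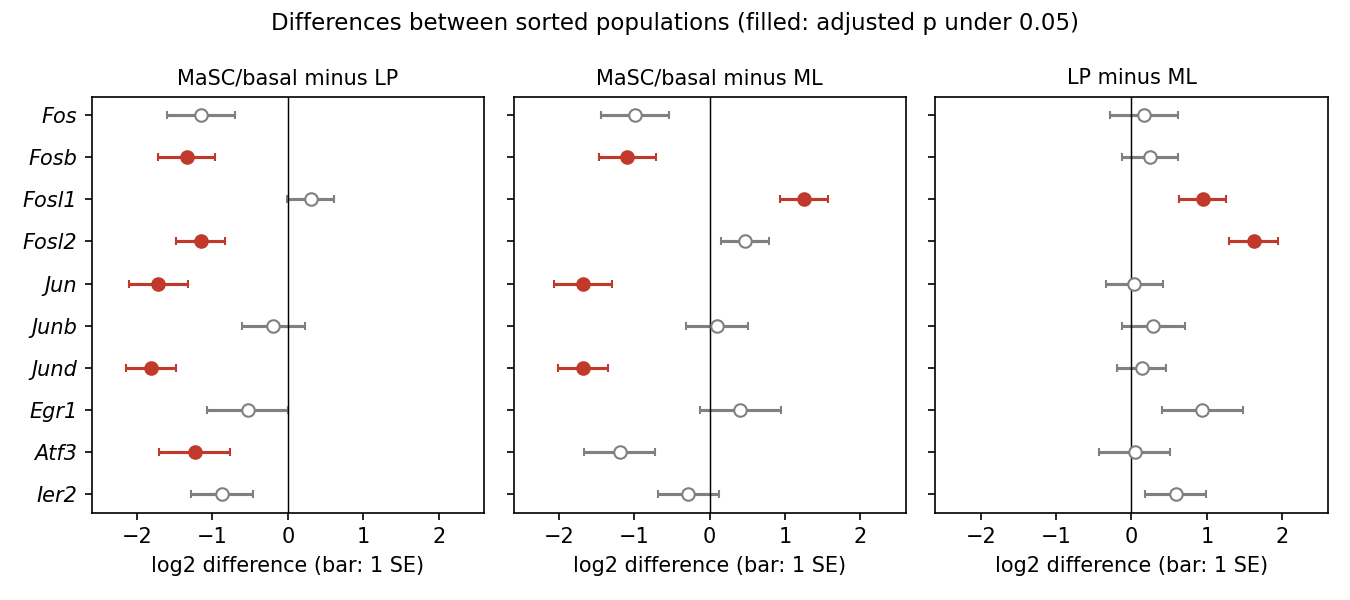
log2 difference (point) and 1 SE (bar) of each gene for the 3 pairs of sorted populations, n = 3 libraries each, filled where the edgeR adjusted p was under 0.05. *Jun* and *Jund* lie left of 0 in both MaSC/basal comparisons, and *Fosl1* and *Fosl2* alone are filled between LP and ML cells.

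The second question was how far the replicates differed. The genes varied more between libraries of a population than most genes: their pooled SD on the log2 CPM scale ran from 0.47 (*Fosl2*) to 0.85 (*Egr1*), with a median of 0.60 against 0.27 over all genes tested. With the batch also removed the medians were 0.55 and 0.23. The share of genes with a smaller SD was 79.2% for *Fosl2* and 96.1% for *Egr1*. With the batch also removed it ran from 56.3% (*Jund*) to 98.2% (*Egr1*), with 68.75% for *Fosl1* and 71.55% for *Fosl2*.

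Across replicates 8 of the 10 genes moved together, and *Fosl1* and *Fosl2* did not follow them. LP replicate 2 was the lowest LP library for 8 of 10 genes, against 33.1% of all genes tested, and ML replicate 2 was the lowest ML library for 8 of 10, against 36.4%. Both belong to library batch 2. *Fosl1* and *Fosl2* were instead lowest in LP and ML replicate 3, both of batch 3. MaSC/basal replicate 3 was the lowest for 9 of 10 genes, against 40.5% of all genes, the exception being *Fosl1*.

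Across the 9 sorted libraries, after the population mean was removed, each gene was correlated with the mean of the other 9 genes as a description. Pearson's r was 0.76 for *Jund* and between 0.89 and 0.98 for *Fos*, *Fosb*, *Jun*, *Junb*, *Egr1*, *Atf3* and *Ier2*, against 0.21 for *Fosl2* and -0.05 for *Fosl1*. These points share libraries and batches, and removal of 3 means leaves fewer independent values than libraries.

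No member differed between batches by the test that allowed for cell type. The test gave 0 of 10 genes at an adjusted p under 0.05 in edgeR, against 0.454% of all genes tested (70 genes), and 4 of 10 at an unadjusted p under 0.05 (*Jund*, *Fosl1*, *Fosl2* and *Jun*), against 15.6% of all genes. limma voom also gave 0 of 10 and DESeq2 gave 1 of 10 (*Jund*, DESeq2 adjusted p = 0.00759), against 0.434% and 5.86% of all genes. For the single pairs of batches edgeR again gave 0 of 10 each, against 0.22% (batch 2 and batch 1), 0.195% (batch 3 and batch 1) and 0.013% (batch 3 and batch 2) of all genes, with 2, 2 and 4 of 10 at an unadjusted p under 0.05, against 11.6%, 12.2% and 15.7% of all genes. For these pairs limma voom gave 0 of 10 each and DESeq2 gave 1 of 10 each (*Jund*, *Fosl1* and *Jund*), against 1.89%, 2.55% and 4.55% of all genes in DESeq2. In size, *Jund* differed by -0.68 ± 0.19 and *Jun* by -0.77 ± 0.27 between batch 2 and batch 1 (edgeR adjusted p = 0.282 and 0.361). *Fosl1* differed by -0.93 ± 0.25 and *Fosl2* by -0.79 ± 0.27 between batch 3 and batch 1 (edgeR adjusted p = 0.224 and 0.315). The labels give a different preparation kit version for batch 1 than for batches 2 and 3. Among 12 heat shock genes, *Hsph1* (1.88 ± 0.20, edgeR adjusted p = 0.0261) and *Dnaja1* (1.37 ± 0.19, edgeR adjusted p = 0.0474), both chaperone genes, were higher in batch 3 than in batch 1.

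Libraries of a single batch also stood apart. MaSC/basal replicates 2 and 3 both belong to batch 2, yet *Egr1* fell from 3410 to 683 CPM between them, a 5.00-fold difference, *Fos* was 3.89-fold lower and *Junb* 3.78-fold lower in replicate 3. *Atf3*, *Ier2* and *Fosb* were 2.68-, 2.52- and 2.21-fold lower. In all, 6 of 10 genes were over 2-fold lower in replicate 3, against 2.96% of all genes tested, while *Fosl1* was 1.06-fold higher. The median difference was -1.24 over the 10 genes and -0.06 over all genes. Endothelial markers summed to 91.0 CPM in replicate 3 and 42.6 CPM in replicate 2, and heat shock genes to 4558 and 6113 CPM; their part in the difference was not tested. There is no test of a single library against another.

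**Figure D3:**
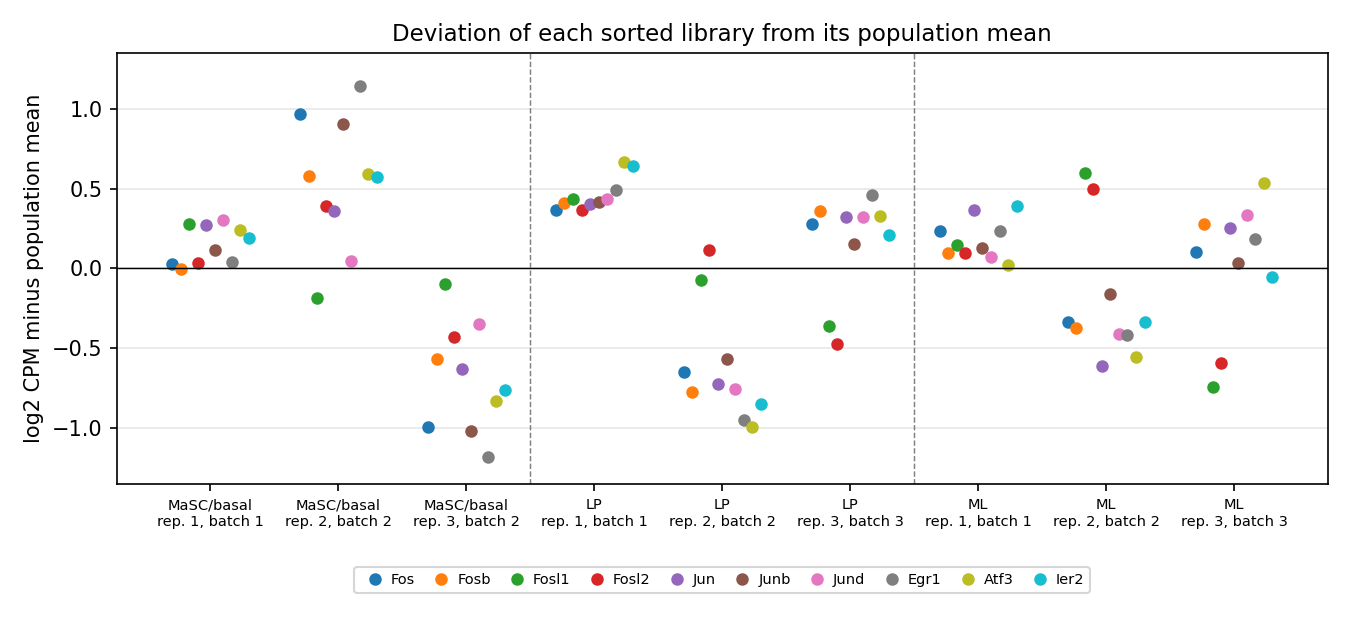
log2 CPM of each gene minus the mean of its population, for the 9 sorted libraries with the replicate and batch of each. All but *Fosl2* lie below 0 in LP replicate 2, all but *Fosl1* and *Fosl2* in ML replicate 2, and all 10 lie below 0 in MaSC/basal replicate 3.

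The third question was how the cultured libraries compared with freshly dissociated cells. All 10 genes were lower in the mammosphere library than in each of the 9 sorted libraries, and all 10 were lower in the CommaDB library as well. In the mammosphere library 10 of 10 genes lay below all 9, against 19.3% of all genes tested, and 10 of 10 were over 2-fold below the mean of MaSC/basal cells, from which the spheres were grown, against 20%. For CommaDB the counts were again 10 of 10 and 10 of 10, against 27.1% and 24.8%. Each culture has 1 library, both are compared with the same sorted libraries, and no test across genes was made for either. The CommaDB library belongs to batch 3, which has no MaSC/basal library. Its differences from the MaSC/basal mean therefore cannot be told apart from batch. The genes were also chosen with earlier results of these data known, so the counts are a description. These 4 counts were each 10 of 10 without MaSC/basal replicate 1 as well.

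*Fosb* showed the greatest gap in the mammosphere library, with 22.9 CPM against 1541 to 3414 CPM in MaSC/basal cells, a log2 difference of -6.64 from their mean. *Atf3* had 19.8 CPM against 540 to 1448 CPM (-5.59), *Fos* 102 CPM against 1029 to 4000 CPM (-4.33), *Egr1* 78.8 CPM against 683 to 3410 CPM (-4.29) and *Fosl1* 6.63 CPM against 90.4 to 125 CPM (-3.95). These 5 genes were therefore at 15.4- to 99.8-fold lower levels than the MaSC/basal mean. The other five were closer to it, by -2.38 for *Jun* (183 CPM), -2.32 for *Ier2* (64.4 CPM), -2.05 for *Junb* (342 CPM), -1.54 for *Jund* (167 CPM) and -1.37 for *Fosl2* (270 CPM).

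In the CommaDB library *Atf3* lay farthest below the MaSC/basal mean, at 44.3 CPM (-4.44), followed by *Fosb* at 221 CPM (-3.37), *Fosl1* at 15.6 CPM (-2.72) and *Fos* at 331 CPM (-2.63). *Junb* was at 256 CPM (-2.47), *Jund* at 127 CPM (-1.93), *Egr1* at 444 CPM (-1.80) and *Jun* at 278 CPM (-1.78). *Fosl2* at 288 CPM (-1.28) and *Ier2* at 140 CPM (-1.20) were the nearest. More CPM in CommaDB than in the mammosphere library were found for 8 genes, by up to 3.27 on the log2 scale for *Fosb*, and *Junb* and *Jund* had less. *Fosl2* lay only 0.28 (mammosphere) and 0.19 (CommaDB) on the log2 scale below the lowest sorted library, ML replicate 3.

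Taking both cultured libraries against the 9 sorted libraries, an exact two-sided permutation test over the 55 ways to choose 2 of 11 libraries gave p = 0.0182, the smallest it can give, for 9 genes and p = 0.0364 for *Fosl2*. All 10 were thus lower at p under 0.05, against 10.3% of all genes tested. The 2 cultured libraries are different materials and not replicates of a condition, and the sorted libraries share populations and batches. The p-value therefore does not measure how cultures vary. Since both cultured libraries lay below all 9 sorted libraries for every gene, a small p largely follows from that order. The difference of means ran from -1.54 (*Fosl2*) to -5.83 (*Fosb* and *Atf3*), and both cultured libraries showed its direction for each gene. Against the 3 MaSC/basal libraries alone the smallest possible p is 0.1, so that the test cannot pass 0.05, and it gave 0.1 for 8 genes and 0.2 for *Junb* and *Ier2*. Fibroblast markers summed to 1730 CPM in the mammosphere and 2045 CPM in the CommaDB library against 187 to 768 CPM in sorted libraries. Of these markers *Col1a1*, *Col1a2* and *Pdgfra* lay above all 9 sorted libraries in both cultures. *Dcn* lay below the MaSC/basal mean in both (-0.93 and -1.03). *Lum* lay above that mean in mammospheres (1.86) and below it in CommaDB (-4.20). MaSC/basal markers summed to 3273 and 1495 CPM. The luminal markers *Krt8*, *Krt18* and *Cdh1* summed to 2120 and 117 CPM against 734 to 913 CPM in MaSC/basal libraries. *Kit*, *Elf5*, *Aldh1a3* and *Itgb3* summed to 423 and 46.8 CPM against 89.5 to 96.5 CPM in MaSC/basal libraries. Immune markers summed to 40.5 and 3.30 CPM against 7.67 to 25.2 CPM in sorted libraries, and endothelial markers to 11.5 and 0.545 CPM. The part of these markers in the differences was not tested.

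**Figure D4:**
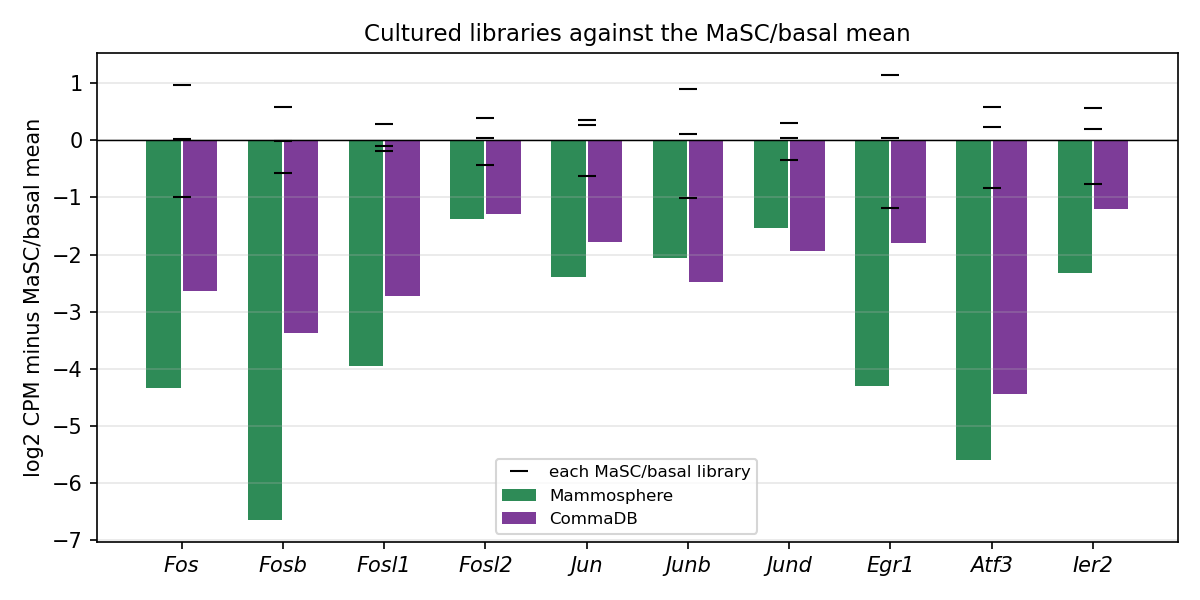
log2 CPM of each cultured library minus the mean of the 3 MaSC/basal libraries (bars), with each MaSC/basal library as a dash. Every bar ends below the lowest dash of its gene, from -1.20 for *Ier2* in CommaDB to -6.64 for *Fosb* in the mammosphere library.

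Because the genes differed in size of change, the make-up of the AP-1 families was compared per exon length, as RPKM, the CPM divided by exon length in kilobases. *Fos* was the leading Fos-family transcript in all 11 libraries, with 47.0% to 63.2% of family RPKM in sorted libraries, 46.5% in mammospheres and 57.5% in CommaDB. *Fosb* came next in sorted libraries, with 29.9% to 39.9%, but held 5.79% in mammospheres. *Fosl2* held 1.37% to 10.4% in sorted libraries, 44.0% in mammospheres and 17.9% in CommaDB, while *Fosl1* stayed at 5.41% or less in every library. The mammosphere library thus held nearly equal *Fos* and *Fosl2* per length.

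In the Jun family, *Junb* led in all MaSC/basal libraries, with 53.9% to 72.1%, and in both cultures, with 61.7% and 51.4%. *Jun* held 19.2% to 27.3% in MaSC/basal and 35.3% to 45.7% in luminal libraries and led in 3 of them, LP replicate 3 and ML replicates 1 and 3. *Jund* held 8.73% to 18.8% in MaSC/basal and 21.1% to 25.6% in luminal libraries. Neither *Jun* nor *Jund* shares overlapped between MaSC/basal and luminal libraries. The ratio of Fos-family to Jun-family RPKM was 1.28 to 1.74 in the sorted libraries, 1.02 in CommaDB and 0.347 in mammospheres. No test was made on these shares, and transcript levels do not give the protein dimers present.

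**Figure D5:**
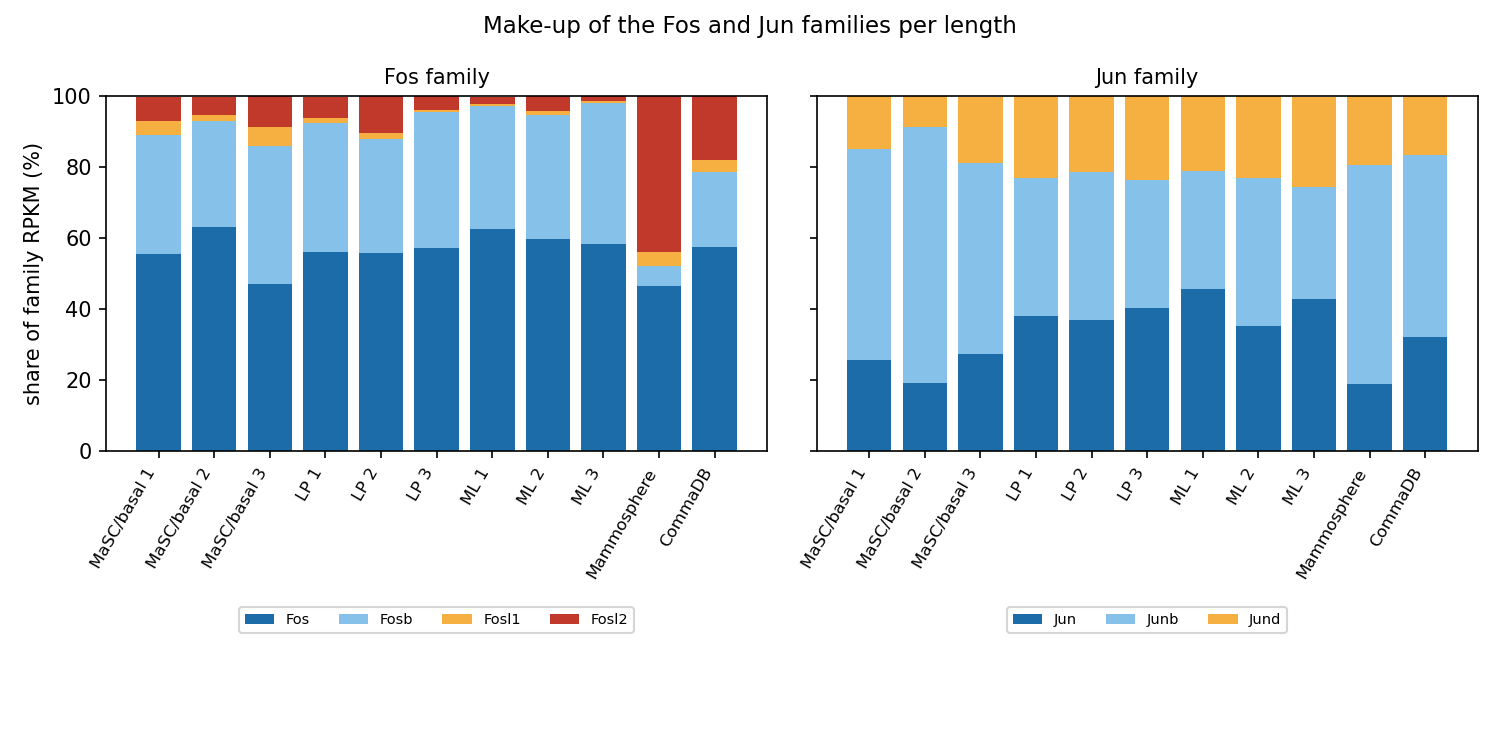
Share (%) of each gene in the summed RPKM of the Fos family (left) and Jun family (right) in each of the 11 libraries. *Fosl2* takes 44.0% of the mammosphere Fos family and at most 10.4% in sorted libraries.

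Related gene lists were read for the same comparisons. Of 34 other immediate early genes, 28 were over 2-fold below the MaSC/basal mean in the mammosphere library and 27 in CommaDB. The shares among all genes were 20% and 24.8%. In each culture 25 of the 34 lay below all 9 sorted libraries, against 19.3% and 27.1% of all genes. *Egr4*, which encodes a zinc finger factor, had only 2 reads in the mammosphere and 3 reads in the CommaDB library (0.0451 and 0.102 CPM) against 11.3 to 60.3 CPM in MaSC/basal libraries, too few for a fold. *Nr4a3*, which encodes an orphan nuclear receptor, was below the MaSC/basal mean by log2 -7.51 in mammospheres and -6.62 in CommaDB, followed by *Nr4a1* in mammospheres (-5.66) and *Egr2* in CommaDB (-5.29). *Ptgs2*, which encodes the inducible cyclooxygenase and was singled out after its values were seen, went the other way, with 2.66 and 3.91 above the MaSC/basal mean.

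Of 20 feedback inhibitors, which encode phosphatases, RNA-decay factors and inhibitors of NF-kB, receptor kinase and cytokine signalling that restrain such responses, 10 were over 2-fold below the MaSC/basal mean in the mammosphere library and 15 in CommaDB. Among all genes tested the shares were 20% and 24.8%. *Dusp2* (-4.95 and -4.45) and *Socs3* (-4.02 and -3.97) led in each, with *Zfp36* next in mammospheres (-3.81) and *Errfi1* next in CommaDB (-3.89). The 19 upstream regulators, among them kinases, CREB-family and ternary complex factors and *Mrtfa* and *Mrtfb*, had 2 and 3 genes over 2-fold below. *Crem* was the farthest (-2.07 and -2.59), and the median difference was 0.00 and 0.28. *Srf* was not among the 19 but among the other immediate early genes, at -1.62 in mammospheres and -1.32 in CommaDB. Others of the 19 were higher, among them *Map2k1* (1.53) and *Mapk3* (1.44) in mammospheres and *Elk3* (1.82) in CommaDB. Above all 9 sorted libraries lay 6 and 8 of the 19, against 3055 and 4114 of all 15422 genes. AP-1 partners had 7 and 8 of 12 over 2-fold below, and heat shock genes 6 and 4 of 12. Against the same 20% and 24.8% of all genes, the upstream regulators were below the share in both libraries.

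Between sorted populations the other immediate early genes did not share 1 order. Of 34 genes, 7 were higher and 11 lower in MaSC/basal than in LP cells, 14 were higher and 4 lower in MaSC/basal than in ML cells, and 14 were higher and 1 lower in LP than in ML cells. All genes tested gave 29.4% and 28%, 28.9% and 29.7%, and 14.3% and 17.5%. The share of the list was near this for genes lower in MaSC/basal than in LP cells. It was above this for genes higher in MaSC/basal or LP than in ML cells, and below it for the others. *Arc* and *Egr4*, both better known from neurons, were higher in MaSC/basal than in ML cells by 5.21 ± 0.67 and 4.73 ± 0.87 (log2, SE, edgeR adjusted p = 8.8e-05 and 0.000933), the reverse of *Jun* and *Jund*. *Npas4*, a neuronal factor named by the same rule, had 1.02 to 1.73 CPM in MaSC/basal libraries and at most 3 reads in any luminal library, and since it passed the filter through MaSC/basal libraries, no fold is given. Feedback inhibitors were higher in 7 and lower in 9 of 20 in MaSC/basal against LP cells, against the same 29.4% and 28% of all genes, with *Tnfaip3* (-3.83 ± 0.45) and *Nfkbia* (-3.15 ± 0.29), both inhibitors of NF-kB, lower and *Spry1* (2.97 ± 0.34), an inhibitor of receptor tyrosine kinase signalling, higher.

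The genes whose levels were most like the mean of the 10 were found by Pearson's r among genes with a mean of at least 10 CPM. Over all 11 libraries they included *Zfp36* (r = 0.997), *Slc25a25* (0.975), *Hic2* (0.971) and *Ppp1r15a* (0.96), values set largely by the gap between 9 sorted and 2 cultured libraries. Over the 9 sorted libraries with population means removed they were *Atg14* (0.995), *Rilpl2* (0.994), *Eef2kmt* (0.992), *Ube4b* (0.992) and *Ccdc43* (0.992). The latter genes moved over a range of 0.14 (*Ccdc43*) to 1.13 (*Rilpl2*) on the log2 scale, against 1.09 to 2.32 for the 10 genes. Both sets are the highest of many correlations, and nothing was tested.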

How the data were processed

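The authors aligned single-end reads to mm10 (GRCm38) with Rsubread and counted them per Entrez gene with featureCounts; the deposited counts are raw, one table per library, and exon lengths came with them. The submitters' processing notes also name CASAVA 1.8.0, edgeR 3.6.2 and limma 3.20.5. Reads shared by near-identical genes (*Hspa1a* and *Hspa1b*) are uncertain. Symbols were matched for 25275 of 27179 genes from a RefSeq table (GRCm38.p6), and promoter windows are RefSeq's. The members and lists were chosen with earlier results of these data known.

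edgeR 4.0.16 (R 4.3.3) fitted 5 cell-type means to all 11 libraries after TMM scaling, with a quasi-likelihood test. Batch was tested by adding it to the means. log2 CPM used a prior count of 2. limma 3.58.1 (voom), DESeq2 1.42.0, other scalings and filters, the 9 sorted libraries alone, a replicate block and leaving out each library were alternatives. The 3 tools were tested on simulated data.

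Libraries were grouped by their labels, and replicates numbered in accession order. Replicates were labelled as independent samples per population. The labels give a library batch: LP and ML replicates 1 to 3 are batches 1 to 3, MaSC/basal replicate 1 is batch 1, replicates 2 and 3 are batch 2, the mammosphere library is batch 1 and CommaDB batch 3. Deviations of LP and ML libraries of the same batch correlated over all genes (r = 0.32, 0.313 and 0.526), so batch was taken to pair them, and the replicate block is that batch.

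Named genes were the 10 members; in each list the 3 called genes with the largest absolute log2 difference in a reported comparison; the 5 most like the members' mean over 11 and over 9 libraries; and marker genes. The values of some genes under this rule are not reported here. The lowest count behind a member was 294 reads, for *Fosl1* in the mammosphere library, so counting error was small beside the spread of replicates.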

Additional observations from a re-analysis of the deposited data

How the results depend on the processing

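Having 3 libraries per population limits the population tests, the cultures have 1 library each, and batch 3 has no MaSC/basal library. *Jun* and *Jund* kept their calls between MaSC/basal cells and both luminal populations under every alternative run. Leaving out 1 sorted library at a time, the number of genes called was 3 to 7 for MaSC/basal against LP (5 with all libraries, and 3 without MaSC/basal replicate 3), 3 to 6 for MaSC/basal against ML (4 with all) and 1 to 2 for LP against ML (2 with all). The LP against ML count was also 1 without scaling beyond library size and 1 in the 9 sorted libraries alone, *Fosl1* losing its call in both. With the replicate block of library batch the counts were 4, 3 and 2, and the block changed no call other than those of *Atf3* and *Fosb* given above.

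Without scaling beyond library size the median of all genes shifted to -0.19 (LP minus ML) and 0.14 (MaSC/basal minus LP), against -0.01 in each with TMM. Small differences that passed no test changed sign. Between LP and ML cells these were, without scaling, *Fos* (-0.0038), *Jun* (-0.14), *Jund* (-0.039) and *Atf3* (-0.14), and *Atf3* also in limma voom (-0.045) and with the replicate block (-0.0050). *Junb* between MaSC/basal and ML cells was -0.10 in limma voom. Without 1 library the values ran from -0.22 to 0.34 for *Jun*, -0.049 to 0.45 for *Jund* and -0.27 to 0.42 for *Atf3* (LP minus ML), from -0.73 to 0.18 for *Junb* (MaSC/basal minus LP), and from -0.42 to 0.46 for *Junb*, -0.31 to 0.81 for *Egr1* and -0.57 to 0.015 for *Ier2* (MaSC/basal minus ML). The cause was not tested.

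DESeq2 called 1 gene over all batches, *Jund*, and 1 in each pair of batches, against 0 in edgeR. The exact test called 10 genes lower in culture (10.3% of all genes), 9 to 10 without 1 library (9 without LP replicate 2), 9 without scaling and 0 against MaSC/basal libraries alone, where it cannot pass. Over 2-fold below the MaSC/basal mean in CommaDB were 9 genes without MaSC/basal replicate 2. Not divided by length, *Fos* led its family in 3 libraries instead of 11, and *Jun* in 7 instead of 3, since undivided counts weight longer transcripts.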
